A study of Mus musculus with 24 samples.

Results

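The 7 subunits of the transcription factor AP-1 described here are Fos, Fosb and Fosl2 of the Fos family, Jun, Junb and Jund of the Jun family, and Batf. They were chosen by name, with earlier results of these data known. All 7 were among the 9420 genes of the deposited table, which gives 1 value per gene in each of 24 libraries. The cells were Th1 effector cells, CD4+ T cells that make interferon gamma, isolated with CD4 beads from the DO11.10 strain, whose T cells carry a transgenic receptor for an ovalbumin peptide. In all groups later than 0 h the cells had been restimulated with goat antibody to hamster immunoglobulin bound to the plate, soluble anti-CD3 at 1 µg/ml and soluble anti-CD28 at 2.5 µg/ml, and 0 h is the resting state. Newly made RNA, labelled with 4-thiouridine (4sU, a uridine analogue taken up into new transcripts) at 200 µM for 1 h, was measured at 0 h (2 libraries), 1 h (2), 2 h (1), 3 h (1) and 4 h (2). Total RNA was measured at 0 h (2 libraries), 1 h (1), 2 h (1) and 4 h (2). Ribosome-protected fragments (RP, the pieces of mRNA shielded by ribosomes) were measured at 0, 0.5, 1, 2 and 4 h in 2, 1, 2, 1 and 2 libraries. Another 4sU label, 500 µM for 0.5 h (the short label below), was used for 1 library at 0 h and 1 at 0.5 h. The labels give neither the age and sex of the animals nor whether 2 replicates came from different animals or cultures.

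AP-1 is a pair of basic leucine zipper proteins. Fos proteins do not pair stably with each other and bind DNA as partners of a Jun protein, whereas Jun proteins can pair among themselves, and Batf pairs with Jun proteins and lacks the activation domain that Fos has. In T cells the T cell receptor and CD28 drive MAP kinases that act on Fos and Jun, and AP-1 binds together with NFAT at cytokine genes or, as Batf with Jun, together with the factors Irf4 and Irf8. Fos is the classic immediate early gene, a gene transcribed within minutes of a signal without the need for new protein.

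On GRCm38 (GENCODE M21) the genes lie as follows: Fos at chr12:85473890-85477273, Fosb at chr7:19302696-19310051, Fosl2 at chr5:32135801-32157842, Jun at chr4:95049034-95052222, Junb at chr8:84974484-84978718, Jund at chr8:70698949-70700616 and Batf at chr12:85686669-85709087. Fosb, Jun and Junb are on the minus strand and the others on the plus strand, and Jun, Junb and Jund consist of a single exon, while Fos, Fosb and Fosl2 have 4 exons and Batf has 3.

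The bases before the start sites of 4 members are shown because these are the members whose promoter window (250 bases before to 50 after the start, RefSeq, GRCm38.p6) holds the letters TGACG, the core of the cAMP response element, on either strand. Capitals mark TGACG and, in Fos, the TATA box letters TATAAA. The last base of each run is the base before the RefSeq start site. The Fos run is chr12:85473770-85473889 on the plus strand, Fosb is chr7:19310046-19310165 on the minus strand, Junb is chr8:84978749-84978868 on the minus strand, and Batf is chr12:85686600-85686719 on the plus strand.
Fos: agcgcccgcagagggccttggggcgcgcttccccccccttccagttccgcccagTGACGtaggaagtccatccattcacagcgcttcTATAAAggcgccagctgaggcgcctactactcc
Fosb: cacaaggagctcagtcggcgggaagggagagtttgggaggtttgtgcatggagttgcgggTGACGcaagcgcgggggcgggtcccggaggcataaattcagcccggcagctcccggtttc
Junb: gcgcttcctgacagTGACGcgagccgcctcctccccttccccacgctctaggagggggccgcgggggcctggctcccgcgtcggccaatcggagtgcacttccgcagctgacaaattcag
Batf: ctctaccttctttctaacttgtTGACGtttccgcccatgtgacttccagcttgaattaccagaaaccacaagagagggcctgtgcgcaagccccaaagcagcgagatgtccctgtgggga

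In Fos TGACG begins at base -66 and again at -129, which lies outside the run shown. In Fosb it begins at -60, in Junb at -106 and in Batf at -98. The letters are common, since 33.4% of the 9602 promoter windows of 7562 genes of the table that have one hold them on either strand. TATAAA, found in the windows of Fos and Junb, occurred in 6.21% of windows. The EGR site GCGNGGGCG, with G or T at the open base, was found in Fosb at -50 and in Fosl2 at -79 (6.52% of windows). The GC box GGGCGG was found in Fos, Fosb, Fosl2, Jun and Batf (64.6%), and in Fosb and Fosl2 one copy overlaps the EGR site. The NFAT core GGAAA was found in Jun and Batf (59.4%). The full element TGACGTCA, which contains TGACG (3.35% of windows), the AP-1 site TGANTCA with C or G at the open base (3.42%) and the CArG box, the site of serum response factor (1.22%), were not among the letters of any of the 7 windows. Only these exact letters were searched, which says nothing of variant sites or of sites farther from the start. The Jun window, for example, holds TGACATCA, which has A where TGACGTCA has G. The RefSeq and GENCODE start sites differed by at most 30 bases for Fos, Fosb, Jun and Junb, by 51 bases for Batf, by 671 for Fosl2 and by 1210 for Jund. The windows of Fosl2 and Jund thus do not hold their GENCODE start sites. For these 2 genes, letters found or missing speak for the surroundings of the RefSeq start alone.

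The members also differ in the AU-rich letters of the mRNA's 3′ end, which mark many short-lived mRNAs. The pentamer ATTTA occurred 8 times in the 3′ untranslated region of Fosl2, 4 times in Fos, 4 times in Jun, 2 times in Junb and 1 time each in Fosb and Jund, and Batf had no copy. The longer motif TTATTTATT, which contains ATTTA, occurred in Fos and Fosl2, against 7.20% of the 9373 genes with an annotated 3′ untranslated region, of which 66.4% held ATTTA. Per length the order differed, with 4.91 copies of ATTTA per kilobase in Fos, more than in 92.9% of those genes, 4.12 in Junb (89.4%), 3.24 in Jun (82.1%), 1.88 in Jund (62.7%), 1.72 in Fosl2 (59.8%) and 0.47 in Fosb (35.1%). The 30 bases of Fos and of Fosl2 with the most copies, in capitals, are shown from the GENCODE M21 transcripts, at bases 643 to 672 and 3676 to 3705 of the untranslated region.
Fos: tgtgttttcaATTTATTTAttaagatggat
Fosl2: attgacATTTAttttattATTTAttttaaa

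The values are FPKM (fragments per kilobase of gene and per 1 M mapped), so a level is relative to the other RNA of its library, and fewer cells of a type and less RNA per cell cannot be told apart. The steps between the smallest RP values fit whole reads over coding lengths at depths of 8.88 to 26.2 M reads per library. No source states that RP was counted over coding sequence, and whole multiples of these depths would fit too. Cd4 had 45.2 to 855 FPKM and Tbx21, the factor that defines Th1 cells, 18.7 to 474 FPKM over the 24 libraries. The sum of the CD4 T cell markers (5 of 6 in the table) was 296 to 5642 FPKM, and the Th1 sum (6 of 6) 197 to 19611. The Th1 markers did not move together. In 4sU RNA Ifng had 101 and 45.4 FPKM at 0 h, 5211 and 737 at 1 h, and 7580 and 2368 at 4 h. Cxcr3 had 59.7 and 38.5 FPKM at 0 h and 3.30 and 5.49 at 4 h. Of the CD4 markers, Cd3g had 171 and 169 FPKM at 0 h and 86.1 and 69.2 at 4 h. The sum of the CD8 T cell markers (6 of 6 in the table) was higher in replicate 1 than in replicate 2, with 105 to 163 against 25.3 to 26.9 FPKM in 4sU RNA, 282 to 368 against 29.3 to 33.3 in total RNA and 845 to 1131 against 107 to 133 in RP, and it was 30.8 and 35.7 in the short label. Most of this gap was Gzma, and without it the sums were 58.0 to 76.4 against 24.4 to 26.2 FPKM, 89.8 to 112 against 24.9 to 29.1, and 246 to 381 against 93.2 to 117. The B cell markers (4 of 6) and the dendritic cell markers (4 of 6) differed between times, mostly in replicate 1, as well as between replicates. In replicate 1 the B cell sum was 1.84 FPKM at 4 h against 17.3 at 0 h in 4sU RNA, 2.33 against 13.5 in total RNA and 6.5 against 62.9 in RP, and in replicate 2 it was 2.04 against 4.19, 2.50 against 2.78 and 7.39 against 17.0. The dendritic sum was 12.2 against 32.5, 28.9 against 75.6 and 125 against 359 in replicate 1, and 12.4 against 12.0, 21.1 against 24.3 and 97.6 against 134 in replicate 2. Over the 24 libraries the macrophage sum (2 of 6) was 0.43 to 7.84 FPKM. Eomes, the 1 of 6 NK cell markers in the table, had 0.42 to 37.1 with its highest values at 3 h and 4 h. The Th2 sum (4 of 4) was 8.68 to 259 and the Treg sum (4 of 4) 252 to 3609. Most of the Treg sum was Il2ra (58.5 to 3252 FPKM) and Ctla4 (161 to 728), while Foxp3 had at most 11.2 and Ikzf2 at most 4.68. In 4sU RNA Gata3 was lower at 4 h (8.84 and 20.0 FPKM) than at 0 h (14.2 and 40.2). The other Th2 markers, Il4, Il13 and Ccr8, were higher at 4 h. The part of these markers in the results was not tested. Differences over time are limma tests on log2(FPKM + 1) within 1 kind of library, adjusted by Benjamini-Hochberg over all its genes and called at an adjusted p below 0.05. A p-value here speaks for the spread among the deposited libraries, which may be technical. The comparisons with 0 h of 1 kind share the 0 h libraries.

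**Figure D1:**
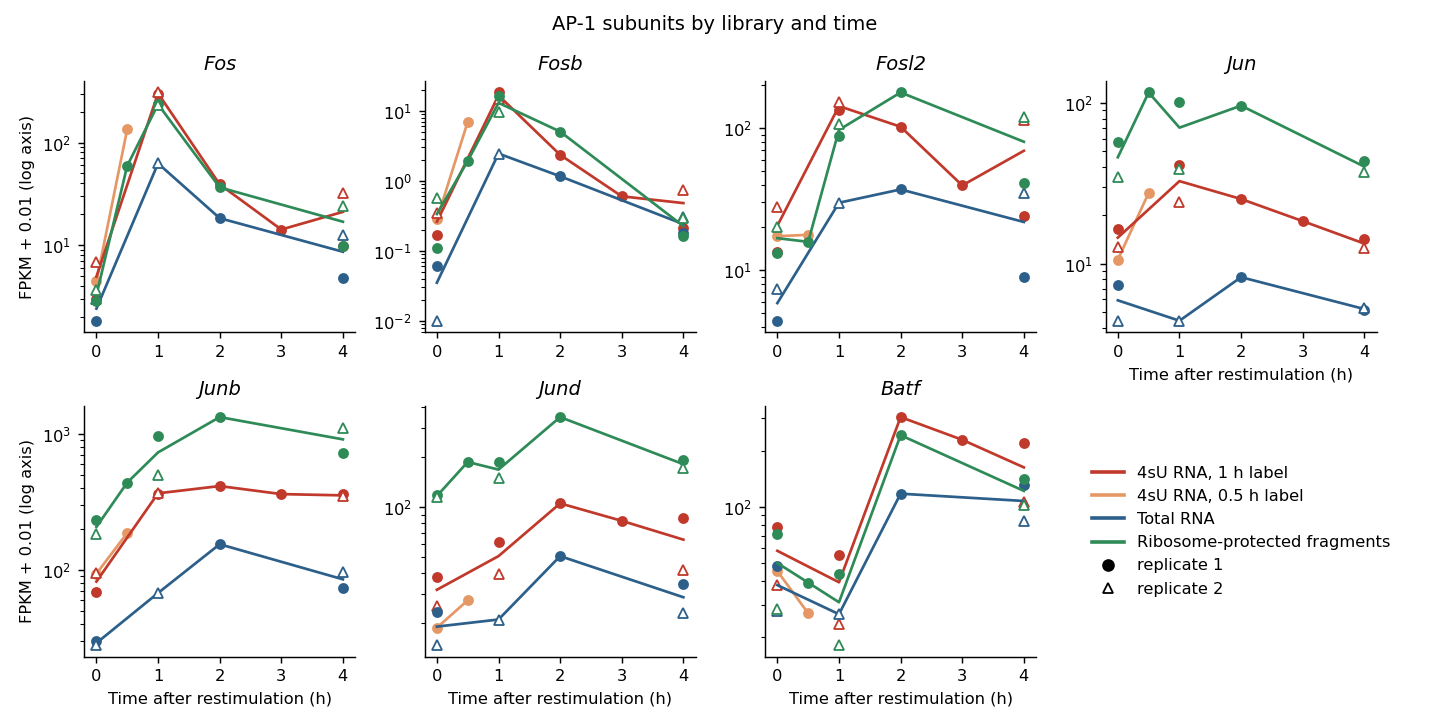
FPKM of the 7 members (vertical log axis, 0.01 added so that a value listed at 0 can be drawn) against hours after restimulation, for total RNA, ribosome-protected fragments and 4sU RNA with either label. Filled circles are replicate 1, open triangles replicate 2, and lines join the means; Fos and Fosb peak at 1 h in each kind of library measured at 1 h, while Batf in those kinds is lower at 1 h than at 0 h in each replicate that has both, and highest at 2 h or 4 h.

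Most members reached levels near the top of the table. At its highest in 4sU RNA, Fos stood above 99.3% of the genes of the library, Junb above 99.2%, Batf above 98.9%, Fosl2 above 98.0%, Jund above 95.8%, Jun above 85.4% and Fosb above 64.2%.

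Fos, the founding member of its family, showed the largest difference from 0 h of the 7 at 1 h. Its 4sU RNA stood at 2.93 and 6.86 FPKM at 0 h, 297 and 308 at 1 h, 39.0 at 2 h, 14.1 at 3 h, and 9.71 and 32.4 at 4 h. Every 1 h library lay above every other 4sU library of the 1 h label, and every later one lay above both 0 h libraries. Fos rose by 5.77 ± 0.56 (log2, SE) at 1 h (adjusted p = 0.0351, limma), and fell by 4.01 ± 0.56 between 1 h and 4 h (adjusted p = 0.0079, limma).

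At 4 h its 4sU level was still 1.77 ± 0.56 above 0 h on the log2 scale, a difference that missed the threshold (adjusted p = 0.0558, limma) and passed with the replicate number as a block (adjusted p = 0.00217) and under median-of-ratios scaling (adjusted p = 0.0402). The differences at 2 h (2.85 ± 0.69, adjusted p = 0.0587) and at 3 h (1.44 ± 0.69, adjusted p = 0.175, limma) were also called with the block alone (adjusted p of 0.00189 and 0.00863). The short label had 135 FPKM at 0.5 h against 4.40 at 0 h. That is a log2 difference of 4.65, with no replicate, among the largest of the 9076 genes compared.

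In ribosome-protected fragments Fos had 2.84 and 3.64 FPKM at 0 h, 59.3 at 0.5 h, 238 and 234 at 1 h, 36.5 at 2 h, and 9.77 and 23.9 at 4 h. It rose by 5.81 ± 0.39 at 1 h (adjusted p = 0.0299), by 3.15 ± 0.48 at 2 h (adjusted p = 0.0328) and by 1.96 ± 0.39 at 4 h (adjusted p = 0.0196, limma), and it fell by 3.86 ± 0.39 between 1 h and 4 h (adjusted p = 0.0116). The single 0.5 h library stood 3.84 ± 0.48 above 0 h, which was not called (adjusted p = 0.507, limma; 0.0497 with the replicate block). In total RNA Fos had 1.81 and 2.95 FPKM at 0 h, 62.5 at 1 h, 18.3 at 2 h, and 4.73 and 12.4 at 4 h. The total RNA groups do not overlap with 0 h at any time, but no difference was called, with adjusted p of 0.112 at 1 h, 0.0897 at 2 h and 0.0686 at 4 h (limma); all 3 passed with the replicate block (adjusted p of 8.52e-19, 5.59e-14 and 1.79e-07), which leaves 1 residual degree of freedom there.

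Fosb, a close relative of Fos, was also highest at 1 h, at a much lower level. Its 4sU RNA stood at 0.16 and 0.34 FPKM at 0 h, 18.3 and 14.9 at 1 h, 2.34 at 2 h, 0.59 at 3 h, and 0.20 and 0.74 at 4 h. The 1 h libraries stood apart from all others, and the 4 h libraries overlapped with 0 h. Fosb rose by 3.81 ± 0.25 at 1 h (adjusted p = 0.0113) and by 1.42 ± 0.30 at 2 h (adjusted p = 0.0461), and fell by 3.60 ± 0.25 between 1 h and 4 h (adjusted p = 0.00519, limma). At 4 h its difference from 0 h was 0.21 ± 0.25 in 4sU RNA (adjusted p = 0.534) and -0.11 ± 0.32 in RP (adjusted p = 0.832, limma), where that of Fos was 1.77 and 1.96. The pseudocount of 1 shrinks the log2 differences of so low a gene, and with 0.1 the calls at 2 h in 4sU RNA and at 1 h and 2 h in RP were lost.

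In ribosome-protected fragments Fosb had 0.10 and 0.55 FPKM at 0 h, 1.91 at 0.5 h, 16.5 and 9.55 at 1 h, 5.04 at 2 h, and 0.15 and 0.28 at 4 h. On those depths and the coding length, both inferred, these are about 2 and 5 reads at 0 h, 37 at 0.5 h, 386 and 173 at 1 h, 90 at 2 h, and 4 and 4 at 4 h, so the order among the 0 h and 4 h libraries rests on a few reads. It rose by 3.38 ± 0.32 at 1 h (adjusted p = 0.0443) and by 2.21 ± 0.39 at 2 h (adjusted p = 0.0384), and fell by 3.48 ± 0.32 between 1 h and 4 h (adjusted p = 0.0116, limma). In total RNA Fosb had 0.05 FPKM and a value listed at 0 at 0 h, 2.44 FPKM at 1 h, 1.15 at 2 h, and 0.17 and 0.29 at 4 h. Its mean there was below 1 FPKM, so it was not tested in total RNA.

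Fosl2, also called Fra-2, was high at 1 h, as Fos was, and also at 2 h. Newly made Fosl2 RNA stood at 13.4 and 27.7 FPKM at 0 h, 133 and 152 at 1 h, 102 at 2 h, 39.5 at 3 h, and 24.1 and 114 at 4 h. The 1 h and 2 h libraries lay above both 0 h libraries, while the 4 h libraries lie far apart and overlap with 0 h. The differences from 0 h were 2.82 ± 0.71 at 1 h (adjusted p = 0.222) and 2.34 ± 0.86 at 2 h (adjusted p = 0.131, limma), neither of them called. With the replicate block all 4 times were called, with adjusted p of 0.00903 at 1 h, 0.00592 at 2 h, 0.0395 at 3 h and 0.0162 at 4 h. Between 1 h and 4 h the difference was -1.41 ± 0.71 (adjusted p = 0.179, limma; 0.0173 with the block).

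The short label gave nearly equal values of Fosl2, 17.7 FPKM at 0.5 h against 17.3 at 0 h. In RP it had 13.3 and 20.3 FPKM at 0 h, 15.8 at 0.5 h, 87.4 and 107 at 1 h, 178 at 2 h, and 41.1 and 119 at 4 h. The RP library of 0.5 h lay between those of 0 h, and all later ones lay above them. Fosl2 rose in RP by 3.36 ± 0.62 at 2 h (adjusted p = 0.0413) and by 2.03 ± 0.50 at 4 h (adjusted p = 0.035, limma). The 1 h difference of 2.48 ± 0.50 was called with the replicate block alone (adjusted p = 0.0123, against 0.262 without it). In total RNA Fosl2 had 4.40 and 7.32 FPKM at 0 h, 29.8 at 1 h, 37.0 at 2 h, and 8.94 and 34.7 at 4 h. The 1 h library is of replicate 2 and the 2 h library of replicate 1. With the block, which leaves 1 residual degree of freedom in total RNA, the 1 h difference went from 2.20 to 1.58. That at 2 h went from 2.50 to 3.12. No difference from 0 h was called there without the block (adjusted p of 0.219 at 1 h, 0.213 at 2 h and 0.125 at 4 h, limma), and all 3 were with it (0.000123, 2.1e-14 and 6.75e-08).

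Junb was the most abundant member in 21 of the 24 libraries, and Batf in the other 3. It is a Jun protein that is a weaker activator than Jun on its own. In 4sU RNA it had 69.4 and 95.0 FPKM at 0 h, 364 and 367 at 1 h, 413 at 2 h, 361 at 3 h, and 359 and 347 at 4 h. All 6 later libraries lay between 347 and 413 FPKM, so the level after 0 h hardly varied. Junb rose by 2.33 ± 0.34 at 2 h (adjusted p = 0.0297), by 2.14 ± 0.34 at 3 h (adjusted p = 0.0157) and by 2.11 ± 0.28 at 4 h (adjusted p = 0.0045, limma), and the 1 h difference of 2.16 ± 0.28 was called only with the replicate block (adjusted p = 0.00242, against 0.078 without it). Between 1 h and 4 h the difference was -0.05 ± 0.28 (adjusted p = 0.910, limma).

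The short label had 187 FPKM of Junb at 0.5 h against 93.9 at 0 h, 1 library each. In total RNA Junb had 30.2 and 28.0 FPKM at 0 h, 67.8 at 1 h, 155 at 2 h, and 74.0 and 96.9 at 4 h. All later libraries lay above both 0 h libraries, and Junb rose by 2.37 ± 0.31 at 2 h (adjusted p = 0.0292) and by 1.51 ± 0.25 at 4 h (adjusted p = 0.0162, limma). The 1 h difference of 1.19 ± 0.31 was called only with the block (adjusted p = 0.00365, against 0.177 without it). In RP it had 231 and 184 FPKM at 0 h, 438 at 0.5 h, 966 and 494 at 1 h, 1326 at 2 h, and 720 and 1101 at 4 h. It rose there by 2.68 ± 0.49 at 2 h (adjusted p = 0.041) and by 2.11 ± 0.40 at 4 h (adjusted p = 0.017, limma). The 1 h RP libraries lay above 0 h but differed from each other, and the difference of 1.74 ± 0.40 was not called (adjusted p = 0.279, or 0.0583 with the block).

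Jun, the founding member of its family and the target of the kinases that carry its name, was highest at 1 h in 4sU RNA and at 0.5 h in RP. Newly made Jun RNA stood at 16.4 and 12.7 FPKM at 0 h, 41.0 and 24.3 at 1 h, 25.3 at 2 h, 18.4 at 3 h, and 14.2 and 12.5 at 4 h. The 1 h libraries lay above both 0 h libraries, and those of 4 h overlapped with 0 h. The 1 h difference was 1.08 ± 0.28 (adjusted p = 0.225, limma; 0.0121 with the block), and Jun fell by 1.19 ± 0.28 between 1 h and 4 h (adjusted p = 0.0273, limma).

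The short label gave 27.6 FPKM of Jun at 0.5 h against 10.6 at 0 h, a log2 difference of 1.30. RP had 57.4 and 34.6 FPKM at 0 h, 116 at 0.5 h, 102 and 39.0 at 1 h, 96.3 at 2 h, and 43.4 and 37.0 at 4 h. The 0.5 h and 2 h libraries are of replicate 1 alone, in which the values at 0.5, 1 and 2 h were close, 116, 102 and 96.3 FPKM. Jun was higher in replicate 1 than in replicate 2 in 7 of 8 replicated groups. No RP difference of Jun was called (adjusted p = 0.642 at 0.5 h and 0.303 at 2 h, limma). Total RNA of Jun had 7.40 and 4.42 FPKM at 0 h, 4.41 at 1 h, 8.24 at 2 h, and 5.13 and 5.30 at 4 h, a range that the 0 h libraries nearly span.

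Jund, the Jun protein made in most resting cells, was highest at 2 h in every kind of library measured then. Newly made Jund RNA stood at 38.0 and 25.3 FPKM at 0 h, 61.4 and 39.6 at 1 h, 105 at 2 h, 82.5 at 3 h, and 85.5 and 41.5 at 4 h. No 4sU difference of Jund from 0 h was called without the block (adjusted p of 0.541, 0.0816, 0.0969 and 0.127 at 1, 2, 3 and 4 h, limma), and all 4 were with it (0.0444, 0.00383, 0.00732 and 0.002). In RP it had 118 and 115 FPKM at 0 h, 187 at 0.5 h, 186 and 150 at 1 h, 348 at 2 h, and 191 and 171 at 4 h. All later RP libraries lay above both 0 h libraries, and Jund rose in RP by 1.57 ± 0.24 at 2 h (adjusted p = 0.0328, limma). The 4 h difference of 0.63 ± 0.20 was called only with the block (adjusted p = 0.0163, against 0.064 without it). In total RNA Jund had 23.3 and 14.6 FPKM at 0 h, 20.9 at 1 h, 50.5 at 2 h, and 34.1 and 22.9 at 4 h. The differences there at 2 h and 4 h were called only with the block (adjusted p of 0.00476 and 0.0276, against 0.21 and 0.256 without it, limma). The 2 h values of 4sU RNA, total RNA and RP come from 1 library each, all of replicate 1, and Jund was higher in replicate 1 than in replicate 2 in all 8 replicated groups.

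Batf stood lower at 1 h, where Fos was highest, than at 0 h in each replicate that has both times. Newly made Batf RNA stood at 78.1 and 38.3 FPKM at 0 h, 55.5 and 23.5 at 1 h, 303 at 2 h, 229 at 3 h, and 220 and 106 at 4 h. In each replicate the 1 h value was below its own 0 h value and the 4 h value above it, and the values from 2 h on lay above all earlier ones. Between 1 h and 4 h Batf rose by 2.05 ± 0.57 (adjusted p = 0.0428, limma). The difference at 1 h was -0.59 ± 0.57 (adjusted p = 0.701; 0.0509 with the block). Those at 2 h (2.45 ± 0.69, adjusted p = 0.0782), at 3 h (adjusted p = 0.0825) and at 4 h (1.46 ± 0.57, adjusted p = 0.0908, limma) were called with the block alone, with adjusted p of 0.00117, 0.00129 and 0.000174.

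RP of Batf gave 71.7 and 28.4 FPKM at 0 h, 39.3 at 0.5 h, 43.6 and 18.1 at 1 h, 242 at 2 h, and 141 and 102 at 4 h. In replicate 1, the one with a 0.5 h library, the lowest value was that of 0.5 h. No RP difference was called without the block, and those at 2 h, 4 h and between 1 h and 4 h were called with it (adjusted p of 0.0086, 0.00323 and 0.00152, limma). In total RNA Batf had 48.4 and 27.8 FPKM at 0 h, 26.6 at 1 h, 118 at 2 h, and 131 and 84.3 at 4 h. The 1 h library, of replicate 2, nearly equalled the 27.8 FPKM of its own 0 h library. Batf rose there by 1.49 ± 0.35 at 4 h (adjusted p = 0.0377, limma), and the 2 h difference was called with the block alone (adjusted p = 0.00038, against 0.185 without it). The short label also gave a lower value at 0.5 h, 26.9 FPKM, than at 0 h, 45.3 FPKM, a log2 difference of -0.73 that was below that of all but 1.43% of the genes compared. Batf starts 209 kb downstream of the end of Fos, on the same strand of chromosome 12.

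**Figure D2:**
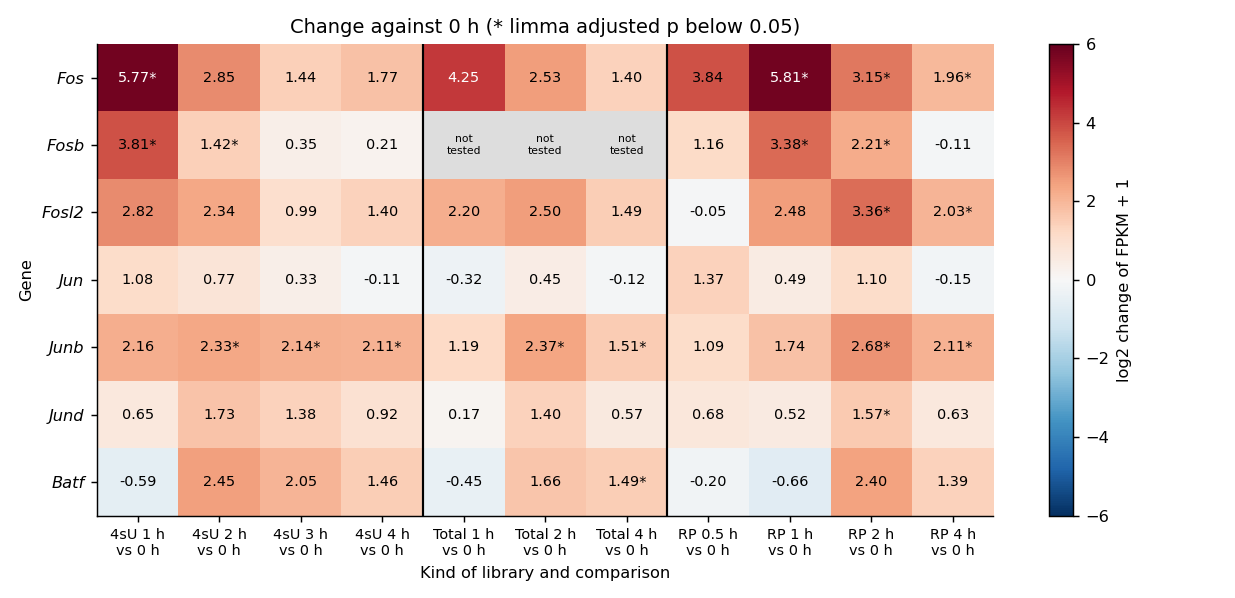
Difference from 0 h of log2(FPKM + 1) for each member (rows) at each time in each kind of library (columns), coloured from blue (lower) to red (higher). Stars mark an adjusted p below 0.05 in limma without the replicate block, and Fosb was not tested in total RNA; the largest values are those of Fos at 1 h, 5.77 in 4sU RNA and 5.81 in RP.

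The members were chosen with earlier results of these data known, so the shares of all genes beside the counts give scale and no test. In counts, 2 of 7 members (Fos and Fosb) rose in 4sU RNA at 1 h, where 0.183% of all 9278 genes tested were called higher. At 2 h 2 of 7 were higher (Fosb and Junb, against 3.87% of genes), at 3 h 1 of 7 (Junb, against 9.41%), and at 4 h 1 of 7 (Junb, against 14.4%). With the replicate block 6 of 7 were higher at 1 h (against 5.21% of genes), 6 at 2 h (13.3%), 5 at 3 h (17.8%) and 5 at 4 h (23.3%). The median difference over the members was 2.16 at 1 h and 1.40 at 4 h, while over all genes it was -0.03 and -0.16. Between 1 h and 4 h 3 of 7 fell (Fos, Fosb and Jun, against 14.7% of genes) and 1 rose (Batf, against 11.9%), and with the block Fosl2 was lower too, 4 of 7 (against 32.2%).

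In total RNA 0 of 6 members and 0 of all genes were called at 1 h (limma), where 3 members and 1197 genes had an unadjusted p below 0.05, and 3 members were higher with the block (1.43% of genes). At 2 h 1 of 6 was higher (Junb, against 0.958% of genes), and at 4 h 2 of 6 (Junb and Batf, against 6.47%), and with the block 5 of 6 were higher at both times (5.33% and 16.6%). In RP 0 of 7 members and 0 of all genes were called at 0.5 h (limma), where 3 members and 743 genes had an unadjusted p below 0.05 and Fos alone was higher with the block (0.0322% of genes). At 1 h 2 of 7 were higher (Fos and Fosb, against 0.140% of genes), at 2 h 5 of 7 (all but Jun and Batf, against 2.96%) and at 4 h 3 of 7 (Fos, Fosl2 and Junb, against 12.1%). With the block these became 3 (against 1.42%), 6 (9.53%) and 5 (21.3%). Between 1 h and 4 h 2 of 7 fell in RP (Fos and Fosb, against 6.42% of genes), and Batf was the 1 member called higher with the block (against 17.5%). In the short label 3 of 7 members (Fos, Fosb and Jun) were at least 2-fold higher at 0.5 h than at 0 h, against 0.694% of genes.

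Most counts needed every library. With 1 library left out, the count of calls over all genes moved in 42 cases and stayed about the same in 46. The count over the members moved in 31 cases and stayed about the same in 57. Many of these 57 had no call to lose. For total RNA at 1 h, RP at 0.5 h and the changes compared between kinds of library, 0 members were called in every fit. Over all genes the main fit called 0 there too, so neither figure measures stability. As counts over all genes moved as well, a lost call below is not read as a trait of the members. In 4sU RNA at 1 h the 2 calls became 0 without replicate 1 of 1 h or without either 0 h library, and 1 without replicate 2 of 1 h. Those in 4sU RNA at 2 h and 3 h, in total RNA at 2 h and in RP at 2 h became 0 without either 0 h library. At 4 h the 1 call in 4sU RNA became 3 without replicate 1 of 4 h and 2 without replicate 2 of 4 h, and the 2 in total RNA became 1 without replicate 1 of 0 h and 0 without replicate 2 of 0 h or either 4 h library. In RP the 2 calls at 1 h became 0 without replicate 1 of 1 h or either 0 h library, and the 3 at 4 h became 0 without either 0 h library and 1 without replicate 2 of 4 h. The falls of Fos and Fosb in 4sU RNA between 1 h and 4 h were called whichever library was left out, with adjusted p of at most 0.0417 (limma). The falls of the same genes in RP were lost whichever library was left out, with adjusted p of 0.0504 to 0.0856 (limma).

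The make-up of the AP-1 signal differed between times. Since FPKM is per length, the members can be compared within a library, and each was expressed as a share of the summed FPKM of the 7. In 4sU RNA Fos, Fosb and Fosl2 together held 46.2% and 51.1% at 1 h, against 7.57% and 16.9% at 0 h. In replicate 2 of total RNA they held 44.2% at 1 h, against 12.1% at 0 h, and in RP 20.9% and 33.3% at 1 h, against 3.29% and 6.34% at 0 h. Batf held 5.72% and 2.52% of the 4sU signal at 1 h, against 35.8% and 18.6% at 0 h. Jun, Junb and Jund held 64.9% to 86.4% of the signal in RP, above their range of 46.4% to 64.5% in 4sU RNA and of 43.4% to 55.3% in total RNA.

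**Figure D3:**
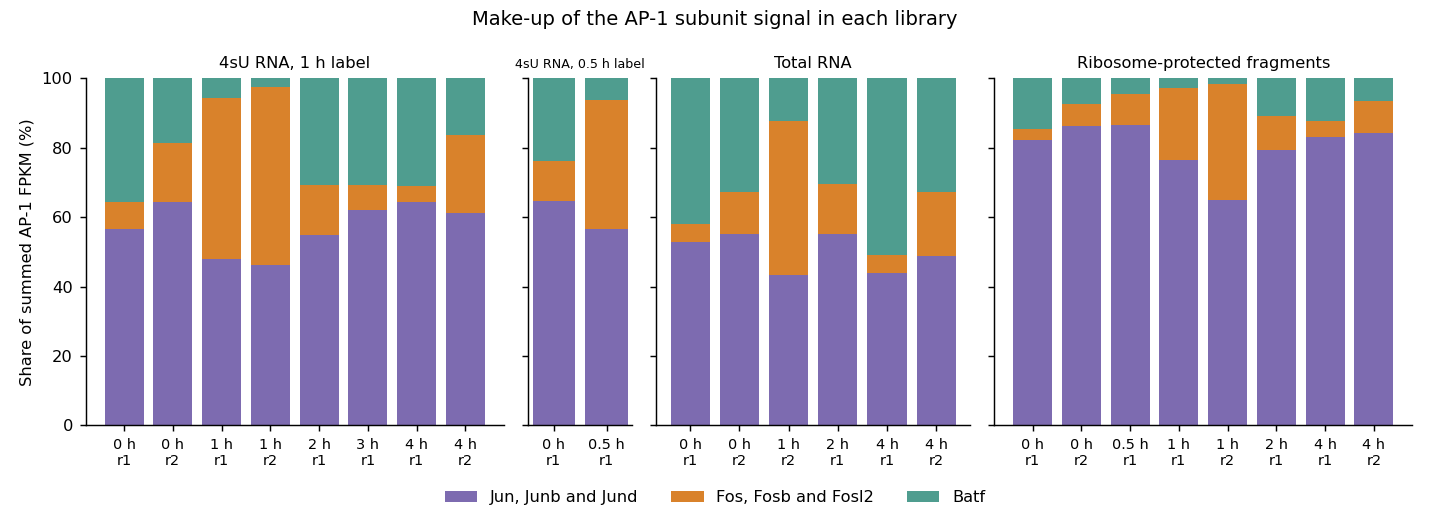
Share of the summed FPKM of the 7 members (vertical axis, percent) held by the Jun family, the Fos family and Batf in each library, by kind, hour and replicate (r1, r2). The orange Fos family segment is widest at 1 h, and the purple Jun family segment is larger in every RP library than in any 4sU or total RNA library.

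The larger Jun share in RP was already there at rest. At 0 h Jun, Junb and Jund stood 2.76 ± 0.43, 2.78 ± 0.35 and 2.59 ± 0.27 higher in RP than in total RNA on the log2 scale (adjusted p of 0.00047, 0.000136 and 4.93e-05, limma). That is 3 of 6 members called, but 71.8% of 9021 genes were called higher in RP, with a median difference of 1.29, so the call itself sets no member apart. Against the centred scale of the median-of-ratios fit the 3 Jun genes were still higher in RP, by 1.43, 1.37 and 1.19 (adjusted p of 0.0257, 0.0124 and 0.00627, limma). The share of all genes that fit called is not given here. As deposited, the differences of Jun, Junb and Jund lay above those of 91%, 91.4% and 88.6% of genes, so many other genes had larger ones. Fos, Fosl2 and Batf were not called, and with the block Fosl2 was (adjusted p = 0.00378, against 0.0773 without it), 4 of 6 members against 78.6% of genes. The difference of Fos was 0.34 as deposited and -0.72 when centred, that of Batf 0.29 and -1.11.

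The lengths behind these values differ between kinds of library, since the RP steps matched the coding length and those of the 1 total RNA library that could be read matched the summed exons. The coding and exon lengths are 1002 and 3189 bases for Jun, 1032 and 2301 for Junb, 1023 and 1668 for Jund, 1140 and 2352 for Fos, 978 and 9680 for Fosl2, and 375 and 1406 for Batf. Between 4sU and total RNA at 0 h Jun (1.19 ± 0.29, adjusted p = 0.00991) and Junb (1.45 ± 0.23, adjusted p = 0.00185, limma) were higher in 4sU RNA, 2 of 6 members, against 40.3% of genes. Jun lost this call under median-of-ratios scaling (0.72, adjusted p = 0.085), and all 6 members were higher with the block (against 55.0%), with adjusted p of 0.0381 for Fos, 0.00225 for Fosl2, 0.00185 for Jund and 0.0121 for Batf.

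**Figure D4:**
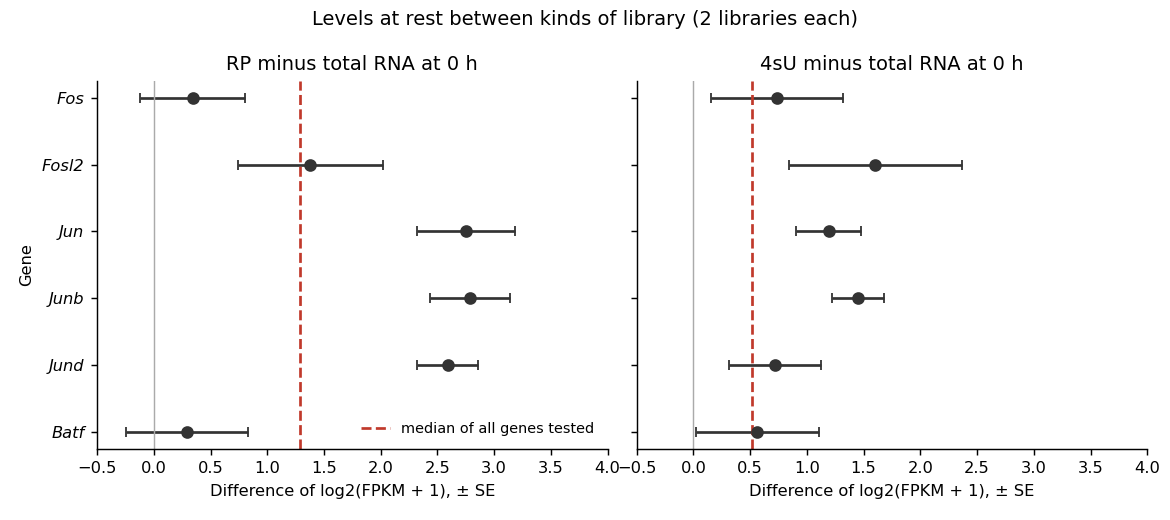
Difference at 0 h between ribosome-protected fragments and total RNA (left) and between 4sU and total RNA (right) in log2(FPKM + 1), with the standard error, for the 6 members tested (2 libraries of each kind). The dashed line is the median of all genes tested, 1.29 on the left and 0.52 on the right; Jun, Junb and Jund lie to the right of it on the left panel.

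Whether the time courses differ between kinds of library was tested directly as an interaction. For the changes between 0 h and 1 h, 0 h and 4 h, and 1 h and 4 h, RP against 4sU RNA gave 0 of 7 members called by limma, with 0 members at an unadjusted p below 0.05. With the replicate block 0 members were called too, against 0%, 0.0653% and 0.261% of genes. Over all genes 0 were called as well, while 227, 633 and 974 had an unadjusted p below 0.05. The rise of Fos at 1 h, for example, was 5.81 in RP and 5.77 in 4sU RNA. The changes between 0 h and 4 h of 4sU RNA or of RP against total RNA likewise gave 0 of 6 members by limma, with 0 at an unadjusted p below 0.05 and 0 with the block (against 1.97% and 0.0333% of genes). The standard errors of these differences ran from 0.33 to 1.08, and differences of that size were not detectable.

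The members differed in how the replicates stood to each other. Batf and Jund were higher in replicate 1 than in replicate 2 in all 8 replicated groups, with a median log2 difference of 1.03 for Batf and 0.56 for Jund. Jun was higher in replicate 1 in 7 of 8, with a median of 0.49. Fosl2 was lower in replicate 1 in all 8 and Fos in 7 of 8, with medians of -0.81 and -0.75. The gaps of these 2 genes were widest at 4 h, where Fosl2 differed by -2.20 in 4sU RNA, -1.85 in total RNA and -1.51 in RP. Fos too was lower in replicate 1 at 4 h in every kind of library, so both genes were nearer to their 0 h level there. The replicates are also those that differ in CD8 T cell, B cell and dendritic cell markers, and the part of this in the results was not tested. Within each replicate taken alone, all 7 members differed in the same direction in both replicates of 4sU RNA between 0 h and 1 h, 0 h and 4 h, and 1 h and 4 h, and all 7 in RP between 0 h and 1 h. In RP 5 of 7 did so between 0 h and 4 h, where Fosb and Jun differed in sign between the replicates, and 5 of 7 between 1 h and 4 h, where Fosl2 and Junb did. In total RNA 6 of 7 did so between 0 h and 4 h, all but Jun.

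**Figure D5:**
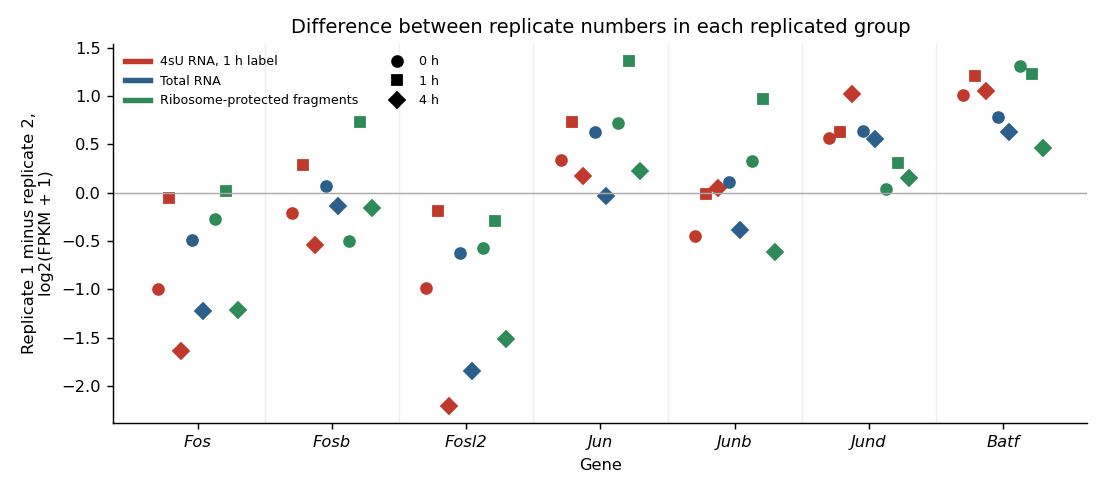
Replicate 1 minus replicate 2 in log2(FPKM + 1) for each member in the 8 groups that have both, coloured by kind of library and with a marker for the hour. Batf and Jund lie above 0 in all 8 groups and Fosl2 below 0 in all 8, with the widest gaps of Fosl2 at 4 h.

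The genes whose levels ran most like each member over the 22 libraries other than the short label were found by Pearson's r on log2(FPKM + 1) centred within each kind, among 5863 genes. These libraries share time and replicate, so a high r describes a shared course and no more. Fos ran with the immediate early genes Egr1 (r = 0.98) and Ier2 (0.95) and with Ppp1r15a (0.93). Fosb ran with Fos (0.92), Ier2 (0.91) and Zfp36 (0.91), whose product binds AU-rich 3′ ends. Fosl2 ran with Dusp6 (0.94), a phosphatase of ERK kinases, Sik1 (0.94) and Hilpda (0.92). Jun ran with Arf6 (0.93), Actb (0.91), which encodes beta actin, and Smim7 (0.89). Junb ran with Csrnp1 (0.97), Maff (0.96), another basic leucine zipper gene, and Tnfsf14 (0.95). Jund ran with Fhl2 (0.96), Icam1 (0.94) and Mapkapk2 (0.92), and Batf with Agpat4 (0.97), Piezo1 (0.95) and Chtf8 (0.94).

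Genes around AP-1 were counted from lists in 4sU RNA, and each count is read against the share of all genes tested. The lists were drawn up with earlier results of these data known, so these shares give scale and no test of a list. At 1 h that share was 0.183% in the upward direction and 0 genes downward (5.21% upward with the replicate block). At 4 h it was 14.4% upward and 18.9% downward, or 23.3% and 35.4% with the block. Of 17 other AP-1 and related basic leucine zipper genes in the table, 0 were called at 1 h (limma; 5 higher with the block). At 4 h 6 were higher (9 higher and 2 lower with the block), led by Atf3 (4.30 ± 0.48, adjusted p = 0.00324) and Batf3 (3.25 ± 0.97, adjusted p = 0.0454, limma). Of 22 MAP kinases and factors that act on Fos and Jun, 0 were called at 1 h (limma; 2 higher with the block). At 4 h 2 were higher and 2 lower (2 and 8 with the block), and the counts without the block are in either direction a smaller share than among all genes. Among the higher was Map2k3 (1.51 ± 0.38, adjusted p = 0.0263) and among the lower Map2k6 (-1.96 ± 0.24, adjusted p = 0.00386, limma), both of which activate p38. Of 6 NFAT and IRF partners 0 were called at 1 h (limma; 1 higher with the block). At 4 h Irf8 (2.71 ± 0.53, adjusted p = 0.0127) and Irf4 (2.02 ± 0.43, adjusted p = 0.0164, limma), which bind with Batf and Jun, were higher and 1 was lower (3 and 1 with the block).

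Of 16 known AP-1 target genes of activated T cells 1 was higher at 1 h, Il3 (5.64 ± 0.56, adjusted p = 0.0355, limma; 12 with the block, against 5.21% of genes). At 4 h 12 were higher (14 with the block), against 14.4% of genes (23.3%), led by the chemokines Ccl4 (6.25 ± 1.35, adjusted p = 0.0173) and Ccl3 (6.19 ± 1.09, adjusted p = 0.00945, limma). The median of the 16 at 4 h was 3.30, while it was -0.16 over all genes. As the list was drawn up with earlier results known, neither its counts nor its median are independent evidence on AP-1 targets. Of 14 genes that degrade or restrain AP-1 subunits 1 was higher at 1 h, Dusp1, a phosphatase of MAP kinases (1.64 ± 0.18, adjusted p = 0.0469, limma; 7 with the block). At 4 h 0 of the 14 were higher and 2 lower (2 and 4 with the block), shares below those of all genes. The 2 were Zfp36l2, which binds AU-rich mRNA (-1.87 ± 0.32, adjusted p = 0.00843), and Tob1 (-1.71 ± 0.35, adjusted p = 0.0149, limma).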

How the data were processed

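RNA was measured as newly made (4sU), total and ribosome-protected RNA in 24 libraries of 16 groups. Per the labels' protocols a stranded kit with removal of ribosomal RNA was used for 4sU and total RNA, and a ribosome profiling kit for RP. The authors deposited FPKM values for 9420 genes. The submitters' processing notes name featureCounts, Subread 1.4.6-p3 and GRCm38. No source used here gives the aligner, the annotation, the gene lengths or the strand setting. Low genes are missing from the table, as the lowest maximum of a gene was 0.97 FPKM in 4sU RNA, 0.97 in total RNA and 0.99 in RP. Of the identifiers, 9412 matched a GENCODE M21 symbol and 8 did not.

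RP depth was inferred from whole-read steps among low values (up to 8 reads, tolerance 0.1 read) with coding lengths from GENCODE M21, and the depth of the other kinds was not used. Tests were run on log2(FPKM + 1) in limma 3.58.1 (R 4.3.3), with a trended prior variance and all times of a kind in 1 fit, over genes with a mean of at least 1 FPKM (9278 for 4sU, 9078 for total RNA, 9312 for RP). A time with 1 library was taken to have the spread of the replicated times. The fits left 3 residual degrees of freedom in 4sU RNA and in RP, 2 in total RNA, and 5 or 6 between kinds. With the replicate block they left 2 in 4sU RNA and in RP, 1 in total RNA, and 4 or 5 between kinds. Blocked p-values in total RNA thus rest largely on the prior variance shared over genes. The script was tested on simulated data. Libraries with the same replicate number deviated together in all 28 pairs of replicated groups (r of 0.306 to 0.790, median 0.598). The main fits take no account of this. Each test was therefore also run with the replicate number as a block, a choice that rests on the values and not on the labels. At times with 1 library the block also moved the estimate, as for Batf in 4sU RNA at 2 h (2.45 without it, 1.90 with it). Values are without the block, and the blocked value is given where it changes a call. Alternatives were a pseudocount of 0.1, no filter, median-of-ratios scaling, the replicate block, and each replicate left out. The values within each replicate were added after seeing the data.

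The members and the gene lists were chosen with earlier results of these data known. The text names the 7 members, the 2 called genes of each list with the largest change in 4sU RNA at 1 h and at 4 h, and the 3 genes most like each member (mean of at least 5 FPKM in each kind, predicted models left out). Promoters are from RefSeq (GRCm38.p6), and transcripts and positions from GENCODE M21. Motifs were searched on both strands of promoters.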

Additional observations from a re-analysis of the deposited data

Results flagged for a closer look

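In 6 cases the difference from 0 h at 4 h was itself different from that at 1 h by limma. In 4sU RNA the change between 1 h and 4 h was -4.01 for Fos, -3.60 for Fosb, -1.19 for Jun and 2.05 for Batf (log2). In RP it was -3.86 for Fos and -3.48 for Fosb. The same direction was seen in both replicates for each of the 6. The calls of Fos and Fosb in 4sU RNA held without any single library. That of Jun was lost without replicate 1 of 4 h, replicate 2 of 4 h or replicate 1 of 1 h (adjusted p of 0.0379 to 0.0916 over the 4 fits, limma). That of Batf was lost without replicate 1 of 4 h or replicate 2 of 1 h (0.0432 to 0.183), and those in RP were lost whichever library was left out.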

How the results depend on the processing

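No called member changed sign under any of the alternatives run. With the replicate block the calls among the members went to 6 in 4sU RNA at 1 h, 6 at 2 h, 5 at 3 h and 5 at 4 h, to 3, 5 and 5 in total RNA at 1, 2 and 4 h, to 1 at 0.5 h and 5 at 4 h in RP, and to 6 for 4sU against total RNA at rest. The block changed no other count by over 1.5 times. With a pseudocount of 0.1, where Fosb lost its call, 1 member was called in 4sU RNA at 2 h and 1 in RP at 1 h. Under median-of-ratios scaling 2 were called in 4sU RNA at 4 h and 1 for 4sU against total RNA at rest. The unfiltered fit moved no call of a member. The fits with 1 library left out moved the count over all genes in 42 cases and left it about the same in 46. These cases include comparisons in which the main fit called 0 genes, so the 46 are no measure of stability. Lost calls are not read as particular to the members. Leaving out 1 library at a time gave, in 4sU RNA, 0 to 1 calls at 1 h, 0 at 2 h and at 3 h, 1 to 3 at 4 h and 2 to 4 between 1 h and 4 h. In total RNA it gave 0 at 2 h and 0 to 1 at 4 h. In RP it gave 0 to 2 at 1 h, 0 at 2 h, 0 to 2 at 4 h and 0 between 1 h and 4 h, and 1 to 2 for 4sU against total RNA at rest. The median of all genes shifted by up to -0.16 in 4sU RNA at 3 h and 4 h as deposited and by near 0 after median-of-ratios scaling. The depth of 4sU and total RNA was not used, and in RP the level of Fosb at rest rests on a few inferred reads.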
